A study of Mus musculus with 6 samples.

Results

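The 10 genes followed here encode the contractile apparatus of smooth muscle and of myofibroblasts and were measured across all conditions of an RNA-seq experiment in C3H10T1/2 cells, a mouse mesenchymal stem cell line. The members were named genes, set without a threshold on a measured value: Acta2, Tagln, Cnn1, Myh11, Myl9, Actg2, Tpm1, Tpm2, Lmod1 and Des. All 10 were found among the 55401 genes of the count table, of which 29043 had at least 1 count. The study compared 3 lines. The shControl line carried a control hairpin and is labelled WT, the shNFIB line carried a hairpin against Nfib, a transcription factor of the nuclear factor I family, and the shMLL1 line carried a hairpin against Kmt2a, which encodes the histone H3K4 methyltransferase MLL1. Each line was sampled untreated at confluence (day 0) and after 7 days in osteogenic medium with β-glycerophosphate, ascorbic acid 2-phosphate and dexamethasone (day 7). Each of the 6 conditions had 1 library, and whether a line is a clone or a pool of cells is not given in the sources used here.

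Smooth muscle contracts when myosin, switched on by phosphorylation of its regulatory light chain, pulls on actin filaments that are dressed with tropomyosin and calponin. Mesenchymal cells in culture often take on part of this programme, above all Acta2 (smooth muscle alpha-actin) in stress fibres, whereas Myh11 (smooth muscle myosin heavy chain) marks mature smooth muscle. Much of the programme is switched on by serum response factor (Srf), which binds the CArG box in promoters together with the coactivators myocardin (Myocd) and the myocardin-related factors Mrtfa and Mrtfb.

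Total counts lay between 21608680 (shMLL1, day 7) and 34774066 (shNFIB, day 0), so that 3 counts, taken as the limit that a count of 0 allows, equalled 0.0939 to 0.123 CPM (counts scaled by library size and TMM factor). At day 0 the shNFIB line held Nfib at 35.3 CPM against 116 CPM in the control line, and at day 7 at 8.15 against 83.5 CPM. The shMLL1 line held Kmt2a at 30.9 CPM against 74.7 CPM at day 0 and at 34.8 against 66.3 CPM at day 7. Both hairpin targets were thus lower in the line labelled for them at both days. In shMLL1, Nfib was also below shControl, at 65.5 against 116 CPM at day 0 and 72.7 against 83.5 CPM at day 7. Kmt2a in shNFIB was above shControl, at 86.5 and 94.0 CPM. Of the markers of other cell types, Ckm, Myf5 and Lmod2 (striated muscle), Kcnj8 and Abcc9 (pericytes), Cd3e (T cells) and Epcam and Krt18 (epithelium) were at 0 in all 6 libraries. The 16 striated muscle markers summed to between 3.17 and 22.3 CPM at day 0 and between 1.35 and 4.75 CPM at day 7, and the 6 endothelial markers to between 12.1 and 27.6 CPM and then between 3.54 and 6.60 CPM. The 6 immune markers summed to between 1.49 and 2.62 CPM at day 0 and between 4.57 and 8.16 CPM at day 7, and the 6 epithelial markers to between 6.14 and 9.14 CPM and then between 0.203 and 1.18 CPM. Some of these sums rest largely on 1 gene. Tnnt2 (striated muscle) was at 0.970, 0.792 and 19.5 CPM at day 0 in shControl, shNFIB and shMLL1. In the same libraries Tek (endothelial) was at 17.7, 25.2 and 3.02 CPM. Cdh1 (epithelial) was at 8.95, 5.80 and 7.85 CPM there. Cd68 (immune) was at 1.94, 1.20 and 2.19 CPM there and at 7.12, 3.99 and 7.58 CPM at day 7. The 8 pericyte markers, several of which mesenchymal cells also express, summed to between 348 and 878 CPM at day 0 and between 583 and 833 CPM at day 7. This sum holds genes that went opposite ways. Cspg4 went from 254, 352 and 145 CPM at day 0 to 32.0, 67.8 and 27.7 CPM at day 7 in shControl, shNFIB and shMLL1. Anpep went from 35.9, 36.4 and 11.3 CPM to 162, 249 and 120 CPM. The part of cells of these other types in the results below was not tested. As these are bulk samples, fewer cells of a type and less RNA per cell cannot be told apart.

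Sequences are shown for 2 purposes, the first being the promoters. RefSeq promoter sequence (GRCm38.p6, 250 bases before to 50 after the start) was available for 7 of the 10 members, and both strands were searched for the CArG box. Myl9 alone among the 7 held a box with no departure, as did 1.63% of 32851 mouse promoters. Acta2, Lmod1, Myl9 and Tpm1 held boxes with 1 departure, and 21.1% of all promoters held a box with at most 1. None was found in the windows of Des, Tpm2 and Cnn1. The matches are printed 5′ to 3′ on the strand of the gene with the box in capitals, and a match is a description of the letters, not a site shown to be bound. Both Acta2 windows lie inside the span of the gene in GENCODE M21, whose start is upstream of the RefSeq start, as does the second Tpm1 window. The other windows lie upstream of the annotated gene.
Myl9, no departure (chr2:156775293-156775322, plus strand): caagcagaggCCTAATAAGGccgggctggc
Myl9, 1 departure (chr2:156775355-156775384, plus strand): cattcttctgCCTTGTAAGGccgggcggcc
Lmod1, 1 departure (chr1:135324614-135324643, plus strand): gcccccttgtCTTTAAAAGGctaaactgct
Lmod1, 1 departure (chr1:135324639-135324668, plus strand): ctgctctgtaCTAAATTTGGtcacgcagcg
Acta2, 1 departure (chr19:34255438-34255467, minus strand): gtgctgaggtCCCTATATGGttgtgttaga
Acta2, 1 departure (chr19:34255388-34255417, minus strand): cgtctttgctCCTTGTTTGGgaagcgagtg
Tpm1, 1 departure (chr9:67049415-67049444, minus strand): gctcgggtccCCATATATAGtcatatccac
Tpm1, 1 departure (chr9:67049274-67049303, minus strand): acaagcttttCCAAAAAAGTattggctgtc

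The second purpose is to show how far the reads of the 2 smooth muscle actins can be told apart, since Acta2 and Actg2 (smooth muscle gamma-actin) encode nearly the same protein. The longest open reading frames of their transcripts, of 1134 and 1131 bases, were identical at 84.2% of aligned positions and differed at 179 of them. The longest run without a difference was 29 bases, and no stretch of 100 bases in either gene's transcripts was found in another gene. One stretch of 60 bases is shown, in which capitals mark the 16 bases that differ.
Acta2, bases 436 to 495 of the reading frame: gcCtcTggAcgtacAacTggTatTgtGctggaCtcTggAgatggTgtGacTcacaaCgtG
Actg2, bases 433 to 492 of the reading frame: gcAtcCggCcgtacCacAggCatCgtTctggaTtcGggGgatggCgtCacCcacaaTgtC

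All 10 members are protein-coding genes. In GENCODE M21 (GRCm38), Acta2 lies at chr19:34241090-34255590 on the minus strand, Actg2 at chr6:83512905-83536265 (minus), Tpm1 at chr9:67022590-67049406 (minus), Myl9 at chr2:156775420-156781658 (plus), Myh11 at chr16:14194535-14291372 (minus) and Lmod1 at chr1:135324807-135368065 (plus). None of these 6 shares exon bases with another gene.

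Levels of different genes were compared per length, as counts per kb of merged exon, scaled as CPM. Acta2 had the highest mean over the 6 libraries, 366.5, with a range of 59.3 to 690.5. Tpm1 (alpha-tropomyosin) followed at a mean of 88.6 (54.4 to 139.4) and Tpm2 (beta-tropomyosin) at 31.1 (21.5 to 41.6). Myl9, the regulatory light chain of smooth muscle myosin, had a mean of 9.58 (5.18 to 18.05). Lmod1 (leiomodin 1, which nucleates actin filaments in smooth muscle) had a mean of 2.64 (0.487 to 4.94) and Actg2 of 1.44 (0.0652 to 5.29). Tagln (transgelin or SM22α, an actin-binding protein) had a mean of 0.626 and Des (desmin, the muscle intermediate filament) of 0.262. Myh11, at 0.0608, and Cnn1 (calponin 1, which binds actin and restrains myosin), at 0.0396, stood at the bottom. Only the neighbours Tpm1 and Tpm2, Tpm2 and Myl9, and Myl9 and Lmod1 had ranges over the 6 libraries that did not overlap. With the longest transcript as length the mean of Tpm1, which has 21 annotated transcripts, was 198.9 and the order of the 10 members was the same. At the low end, Cnn1 had 6, 1 and 1 counts at day 0 and 4, 3 and 4 counts at day 7 in shControl, shNFIB and shMLL1.

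**Figure D1:**
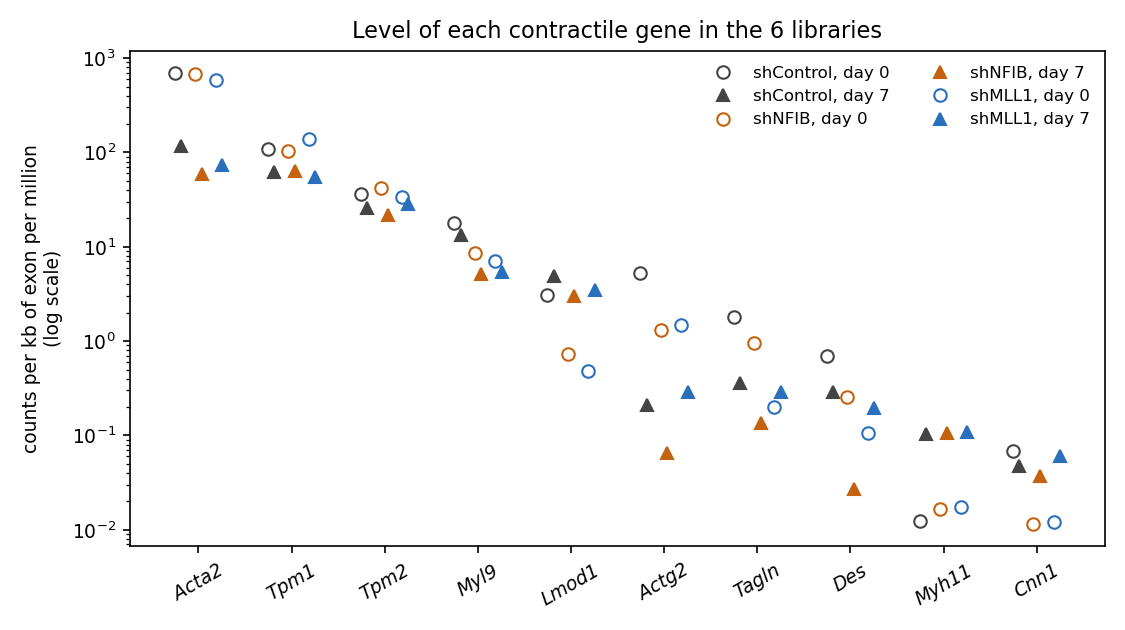
Level of each contractile gene in CPM per kb of exon (log scale), with 1 point per library, open circles for day 0 and triangles for day 7. Acta2 spans 59.3 to 690.5 and Cnn1, the lowest, 0.0116 to 0.0687.

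The first question was how these genes changed over the 7 days of osteogenic culture. Both smooth muscle actins fell. Acta2 went from 1516 to 255 CPM in shControl, from 1491 to 130 CPM in shNFIB and from 1273 to 163 CPM in shMLL1. All 3 libraries of day 7 lay below all 3 of day 0, and in the fit over the 3 lines with line as a block (quasi-likelihood test in edgeR, Benjamini-Hochberg adjustment over all genes) its log2 fold change was -3.02 (SE 0.293, adjusted p = 0.000926). Actg2, at much lower counts, went from 263 to 10 counts in shControl, from 65 to 3 in shNFIB and from 69 to 11 in shMLL1, and its log2 fold change was -3.71 (SE 0.576, adjusted p = 0.00481). Here too the days did not overlap.

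The tropomyosins, which lie along the actin filament and set which myosins can reach it, moved less. Tpm1 went from 705 to 403 CPM in shControl, from 673 to 410 CPM in shNFIB and from 904 to 353 CPM in shMLL1. It was lower at day 7 in each line, and called so in the fit, with a log2 fold change of -0.96 (SE 0.245, adjusted p = 0.0249). Tpm2 went from 105 to 74.4 CPM, from 121 to 62.4 CPM and from 97.7 to 82.7 CPM in shControl, shNFIB and shMLL1. Its log2 fold change of -0.56 (SE 0.207) did not pass the test (adjusted p = 0.0723), although its days did not overlap.

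The motor proteins went different ways. Myl9 was at 21.0, 10.0 and 8.18 CPM at day 0 and at 15.3, 6.02 and 6.23 CPM at day 7 in shControl, shNFIB and shMLL1. Its days overlapped, because the shControl library of day 7 lay above both knockdown libraries of day 0, and its log2 fold change was -0.53 (SE 0.226, adjusted p = 0.109). Myh11 had 3, 4 and 4 counts at day 0 and 24, 24 and 20 counts at day 7 in the same order. It rose, with a log2 fold change of 2.74 (SE 0.579, adjusted p = 0.0135), but stayed under 1 CPM in every library, its highest value being 0.820 CPM in shMLL1.

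Lmod1 was the other member that rose. It was at 12.3, 2.91 and 1.92 CPM at day 0 and at 19.5, 12.0 and 13.9 CPM at day 7 in shControl, shNFIB and shMLL1, with a log2 fold change of 1.83 (SE 0.428, adjusted p = 0.0189). The days overlapped, since shControl at day 0 (12.27 CPM) lay just above shNFIB at day 7 (11.98 CPM), and without line as a block Lmod1 was not called (log2 fold change 1.41). Tagln had 115, 60 and 12 counts at day 0 and 22, 8 and 14 counts at day 7 in that order, and Des 84, 30 and 12 counts and then 33, 3 and 18. Both were lower at day 7 in shControl and shNFIB and not in shMLL1, and neither passed the test (Tagln log2 fold change -1.64, SE 0.701, adjusted p = 0.109; Des log2 fold change -1.06, SE 0.742, adjusted p = 0.295). Tagln was called lower when all genes with at least 1 count were tested.

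Tagln needs a caution. Of its exon bases, 67.9% overlap genes of the other strand, Gm48529, an antisense gene, and Pcsk7. The strand setting of the counting is not given in the sources used here, so that reads from these genes may not be told apart, and Gm48529 had 39, 39 and 14 counts at day 0 and 41, 22 and 52 counts at day 7. Over the 639 exon bases that no other gene shares, the same counts would make the mean level 1.95 rather than 0.626, above that of Actg2.

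In all, 9 of the 10 members passed the filter on low counts and Cnn1 was not tested. Of the 9, 2 were called higher (Myh11 and Lmod1) and 3 lower (Acta2, Actg2 and Tpm1) at day 7, with a median log2 fold change of -0.96. Of all 16742 genes tested, 16.8% were called higher and 16.5% lower, with a median of 0.008. Without the shControl libraries 1 member was called higher and 2 lower, Myh11 (adjusted p = 0.0779) and Tpm1 (adjusted p = 0.132) no longer being called. Without the shMLL1 libraries 2 were called higher and 6 lower, with Tagln, Tpm2 and Des added. Of the same 16742 genes, 1116 were called higher and 1231 lower without the shControl libraries. Without the shMLL1 libraries these were 2254 and 2749, against 2816 and 2758 with all libraries.

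Within a line there is 1 library a day, so that no test could be made, and a 95% exact interval (Clopper-Pearson) covers counting error only. In shControl 1 of 9 members was more than 2-fold higher (Myh11) and 4 lower (Acta2, Tagln, Actg2 and Des), against 23% and 14.9% of all genes with at least 10 counts in either library. In shNFIB 2 were higher (Myh11 and Lmod1) and 4 lower (the same genes as in shControl), against 16.5% and 13.9% of all genes. In shMLL1 2 were higher (Myh11 and Lmod1) and 3 lower (Acta2, Actg2 and Tpm1), against 25.8% and 19.8%.

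The size of the change differed between lines for some members, which is described here without a test, since the fit has no degree of freedom left for it. Lmod1 changed by 0.67 (interval 0.48 to 0.86) on the log2 scale in shControl, by 2.04 (1.70 to 2.39) in shNFIB and by 2.85 (2.45 to 3.28) in shMLL1. The 3 counting intervals do not overlap, and the lines were nearer to each other at day 7 than at day 0. Acta2 changed by -2.57 (-2.61 to -2.54), -3.52 (-3.57 to -3.47) and -2.96 (-3.01 to -2.92) in the 3 lines, so that its fall was deepest in shNFIB. Actg2 changed by -4.63 (-5.73 to -3.75), -4.29 (-6.66 to -2.73) and -2.33 (-3.41 to -1.41), and only the intervals of shControl and shMLL1 did not overlap. Tagln changed by -2.31 (-3.05 to -1.65), -2.79 (-4.09 to -1.74) and 0.52 (-0.69 to 1.77), and Des by -1.28 (-1.91 to -0.68), -3.17 (-5.58 to -1.54) and 0.88 (-0.24 to 2.08). For both, the change in shMLL1 differed from that in shControl beyond counting error, by 2.84 (1.54 to 4.13) for Tagln and 2.16 (0.96 to 3.36) for Des.

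**Figure D2:**
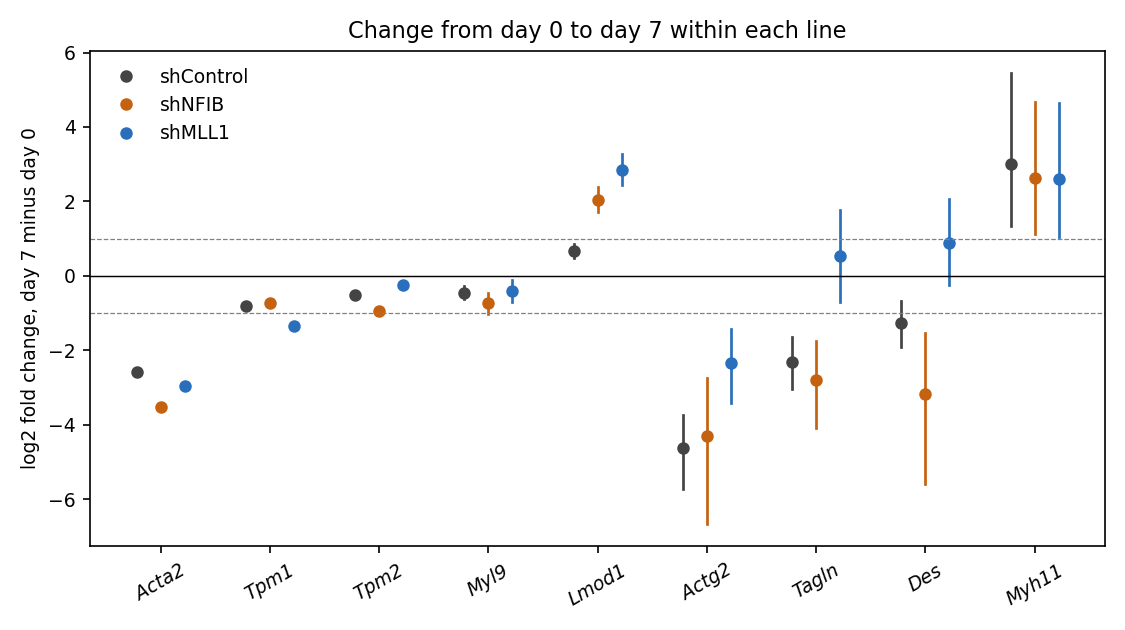
Log2 fold change from day 0 to day 7 of 9 members in each line (points), with 95% counting intervals (bars) and dashed lines at 2-fold. Acta2 and Actg2 lie below -2 in all 3 lines and Lmod1 goes from 0.67 in shControl to 2.85 in shMLL1.

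The second question was whether the contractile genes differed in cells with less Nfib or Kmt2a. In the fit over both days, 0 of the 9 members were called in shNFIB or in shMLL1 with edgeR's quasi-likelihood test, against 0.113% of all genes higher and 0.263% lower in shNFIB, and for shMLL1 0.0119% higher and 0.0179% lower. The same test called neither hairpin target in its own line. Nfib in shNFIB was at -2.39 (SE 0.512, adjusted p = 0.1395) and Kmt2a in shMLL1 at -1.10 (SE 0.224, adjusted p = 0.149). The lack of a call in this fit therefore does not show that a gene was unchanged. Unadjusted p-values under 0.05 were found for 2096 of the 16742 genes tested in shNFIB and for 1553 in shMLL1. Of the members, 3 were among them in shNFIB (Myl9, Actg2 and Lmod1) and 2 in shMLL1 (Myl9 and Lmod1), all lower. DESeq2 called 1 member lower in each line, Myl9 in both. The median log2 fold change of the members was -1.04 in shNFIB and -0.91 in shMLL1, against 0.038 and -0.019 over all genes. The lists of other smooth muscle genes, regulators and nonmuscle counterparts, described below, had medians of 0.273, 0.268 and 0.166 in shNFIB. In shMLL1 their medians were -0.335, -0.331 and -0.43, and 0 genes of these lists were called in either line.

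Myl9 was the only member past 2-fold lower in both lines at both days. At day 0 the log2 fold change of shNFIB from shControl was -1.06 (-1.26 to -0.87) and that of shMLL1 -1.36 (-1.57 to -1.15). At day 7 these were -1.35 (-1.60 to -1.10) and -1.30 (-1.57 to -1.03). In the fit it was at -1.20 (SE 0.278, adjusted p = 0.156) in shNFIB and -1.33 (SE 0.2797, adjusted p = 0.162) in shMLL1. Lmod1 was further from shControl at day 0, at -2.07 (-2.42 to -1.74) for shNFIB and -2.67 (-3.10 to -2.27) for shMLL1, than at day 7, at -0.70 (-0.90 to -0.51) and -0.49 (-0.69 to -0.30).

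The abundant members differed little from shControl at day 0. Acta2 differed by -0.02 in shNFIB and by -0.25 in shMLL1, and Tpm1 by -0.07 and 0.36. At day 7 Acta2 was at -0.97 (-1.03 to -0.91) in shNFIB and -0.64 (-0.70 to -0.59) in shMLL1, both within 2-fold. The low-count members Actg2, Tagln and Des were lower in both knockdown lines at day 0, Actg2 at -1.998 and -1.85, Tagln at -0.92 and -3.17 and Des at -1.46 and -2.71 in shNFIB and shMLL1. At day 7 the intervals of all 3 in shMLL1 included 0, and so did that of Actg2 in shNFIB (-1.65, -4.19 to 0.26), at 3 counts against 10.

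By count, 0 of 8 members were past 2-fold higher and 4 lower in shNFIB at day 0 (Myl9, Actg2, Lmod1 and Des), against 7.26% and 6.32% of all genes. At day 7, 0 of 9 were higher and 4 lower (Tagln, Myl9, Actg2 and Des), against 8.07% and 13.2%. In shMLL1, 0 of 8 were higher and 5 lower at day 0 (Tagln, Myl9, Actg2, Lmod1 and Des), against 11% and 9.34%, and 0 of 9 higher and 1 lower at day 7 (Myl9), against 8.59% and 6.95%. The comparisons at a day share the shControl library, so that a low or high value in it moves both.

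**Figure D3:**
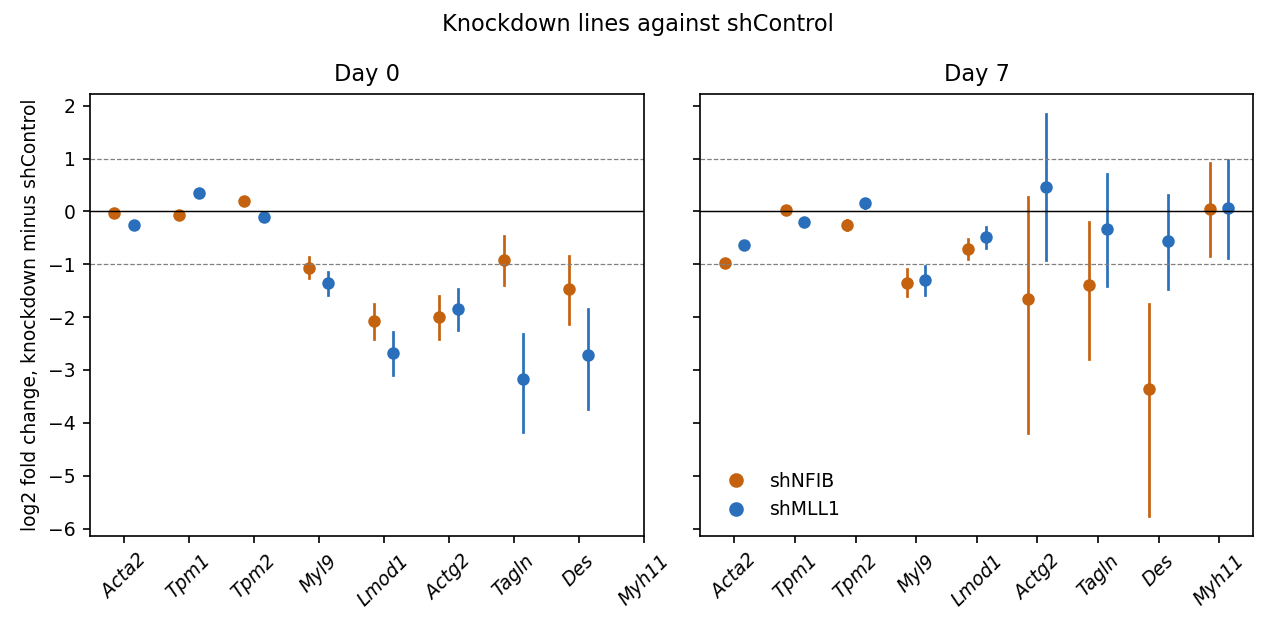
Log2 fold change of each knockdown line from shControl at day 0 and day 7 (points), with 95% counting intervals (bars) and dashed lines at 2-fold. Myh11 is left out at day 0, where it had under 10 counts in each library, and Myl9 lies below -1 in all 4 comparisons.

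Several members have relatives that nonmuscle cells use. The share of these members in their families was taken per length of merged exon, with a 95% counting interval. No share was taken for Tagln, Lmod1 and Des. Among 6 actin genes (Acta2, Actg2, Acta1, Actc1, Actb and Actg1), Acta2 at day 0 made up 30.2% (29.9 to 30.4) in shControl, 28.6% (28.4 to 28.8) in shNFIB and 35.1% (34.9 to 35.4) in shMLL1. In the same order it made up 15.4% (15.1 to 15.7), 6.40% (6.20 to 6.59) and 14.8% (14.4 to 15.2) at day 7. Its share was lower at day 7 in each line, which was not tested. The cytoplasmic actins Actb and Actg1 were themselves called lower at day 7 (log2 fold changes -1.09 and -1.34, SE 0.258 each, adjusted p = 0.0194 and 0.00975).

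Tpm1 took 23.7%, 17.4% and 24.7% of the 4 tropomyosin genes at day 0 in shControl, shNFIB and shMLL1, and 25.5%, 22.4% and 23.4% at day 7. Its share was higher at day 7 in shControl and shNFIB and lower in shMLL1. Tpm2 took 7.88%, 6.98% and 5.95% at day 0 and 10.5%, 7.60% and 12.2% at day 7 in the same order. Tpm4 was called lower at day 7 too (log2 fold change -1.32, SE 0.227, adjusted p = 0.00684). The shares depend on the length used, which the counting intervals do not cover. In shControl at day 0, the longest transcript as length put Tpm1 at 243.9 rather than 108.7 per kb. It put Tpm4 at 263.5 rather than 254.5. Myl9 made up 10.9%, 7.54% and 4.97% of the 3 regulatory light chain genes (with Myl12a and Myl12b) at day 0 and 11.9%, 5.20% and 7.80% at day 7, so that shControl held the highest share at both days. Cnn1 and Myh11 were at most 0.239% of their families in every library, the rest being Cnn2 and Cnn3, and Myh9 and Myh10. Actg2 was at most 0.231% of the actin genes.

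**Figure D4:**
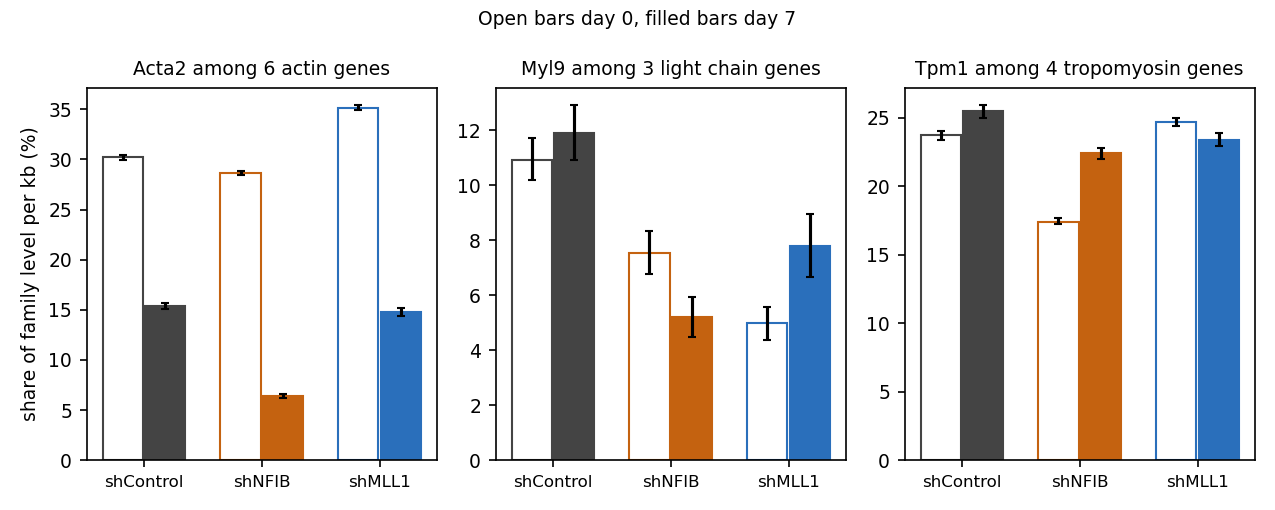
Share (%) of the summed level per kb of its family that Acta2, Myl9 and Tpm1 took in each line, open bars for day 0 and filled bars for day 7, with 95% counting intervals. Acta2 goes from 30.2% to 15.4% in shControl and from 28.6% to 6.40% in shNFIB.

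The remaining genes of the programme were read from lists written from general knowledge. Of 16 nonmuscle counterparts 0 were called higher and 10 lower at day 7, against 16.8% and 16.5% of all genes tested. Their median log2 fold change was -0.88. Besides Actb, Actg1 and Tpm4 the 10 lower ones included Actn4 (alpha-actinin 4, an actin crosslinker), at -1.36 (SE 0.203, adjusted p = 0.00420). Of 12 regulators 11 were tested, and 1 was called higher and 4 lower, against 16.8% and 16.5% of all genes. The regulators had a median of -0.36, and the 4 lower ones were Srf, Klf4, Csrp1 and Csrp2. Srf fell, from 52.4, 42.1 and 40.5 CPM at day 0 to 25.9, 25.7 and 19.3 CPM at day 7 in shControl, shNFIB and shMLL1 (log2 fold change -0.93, SE 0.189, adjusted p = 0.0117). Klf4, a repressor of smooth muscle genes, was lower (log2 fold change -2.13, SE 0.420, adjusted p = 0.0108), going from 192 to 30.2 CPM in shControl and from 231 to 31.9 CPM in shMLL1 but from 265 to 151 CPM in shNFIB, within 2-fold. Fhl2, a LIM-domain cofactor of Srf, was higher by 1.61 (SE 0.210, adjusted p = 0.00251). Mrtfa (-0.26) and Mrtfb (-0.36) did not pass the test. Myocd, the coactivator that defines the smooth muscle lineage, had 0, 2 and 0 counts at day 0 and 0, 1 and 0 at day 7, at or under the floor of 3 counts in each library.

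Of 20 other smooth muscle genes 17 were tested, and 7 were called higher and 2 lower at day 7. Of all genes tested, 16.8% were called higher and 16.5% lower. The 17 had a median log2 fold change of 0.58. Mylk, the kinase that phosphorylates Myl9, was higher by 2.45 (SE 0.282, adjusted p = 0.00167), at 13.9, 7.82 and 12.9 CPM at day 0 and 83.0, 26.0 and 105 CPM at day 7. The integrin subunit gene Itga8 was higher by 3.14 (SE 0.347, adjusted p = 0.00144). Aoc3, an amine oxidase of vascular smooth muscle and adipocytes, was higher by 2.49 (SE 0.484, adjusted p = 0.0102).

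Lastly, the mean pattern of the 5 members with at least 10 counts in every library (Acta2, Myl9, Tpm1, Tpm2 and Lmod1) was compared with all genes that had at least 100 counts in each. This mean averages members that run against each other, since over the 6 libraries Lmod1 had an r of -0.67 with Acta2, -0.80 with Tpm1 and -0.62 with Tpm2. The 10 most like it over the 6 libraries, with Pearson r as a description, were Msrb3 (0.997), Asph (0.991), Msrb1 (0.969), Aldh16a1 (0.968), Abcb1b (0.967), Acd (0.966), Tysnd1 (0.965), Igf1r (0.965), Rpp25l (0.964) and Bcr (0.960). Msrb3, a methionine sulfoxide reductase, was at 193, 108 and 95.5 CPM at day 0 and 104, 59.8 and 64.4 CPM at day 7 in shControl, shNFIB and shMLL1. The libraries share lines and days, and with the median of the members in place of their mean 1 of the 10 genes stayed.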

How the data were processed

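RNA was measured in 6 libraries of C3H10T1/2 cells, 1 per condition. The authors sequenced the libraries as paired reads, trimmed them with Trimmomatic 0.39, aligned them to mm10 (GRCm38) with HISAT2 2.2.1, filtered them with SAMtools 1.12, removed duplicates and deposited raw counts per Ensembl gene from htseq-count 0.11.1, without normalization. The annotation release and strand setting are not given in the sources used here.

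Counts were analysed with TMM factors in edgeR 4.0.16 (R 4.3.3). The terms line and day were fitted by quasi-likelihood over all 6 libraries, leaving 2 residual degrees of freedom, for the 16742 genes kept by filterByExpr, called at an adjusted p below 0.05. The fit also pools the spread over genes, so that its tests use more than these 2 degrees of freedom. An SE given here is the absolute log2 fold change divided by the square root of the quasi-likelihood F statistic. Line is a block because both days of a line come from the same cells, and deviations from the day means correlated at 0.424, 0.427 and 0.273 in shControl, shNFIB and shMLL1. Without replicates of a condition, p-values rest only on what line and day leave unexplained in these libraries. This includes any difference between lines in the change over the days, and no spread between repeats of a condition. Pairs of libraries were compared by fold change with a prior count of 0.125 and no test, among genes with at least 10 counts in either library. Intervals cover counting error only. Lengths and overlaps came from GENCODE M21 on GRCm38. Figures were drawn with matplotlib 3.10.9 under Python 3.11.15, and the fits were tested on simulated data. Alternatives were DESeq2 1.42.0, other scaling, filters and sample sets. The genes named were the members, the hairpin targets, up to 4 genes with the largest change per list and comparison, 4 regulators (Srf, Myocd, Mrtfa, Mrtfb) and the 10 genes of most similar pattern. Some genes that meet this rule are not reported here. The members and lists were chosen with earlier results of these data known.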

Additional observations from a re-analysis of the deposited data

Results flagged for a closer look

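Both tropomyosin genes stood on opposite sides of shControl at the 2 days, with counting intervals that excluded 0 on each side. Whether the 2 days differ was not tested, as each comparison holds 1 library a side. Tpm1 in shMLL1 was higher than shControl at day 0 (log2 fold change 0.36, interval 0.33 to 0.38) and lower at day 7 (-0.19, -0.23 to -0.15), a difference of 0.5516 between the days. Tpm2 in shNFIB was higher at day 0 (0.20, 0.13 to 0.27) and lower at day 7 (-0.25, -0.34 to -0.16), a difference of 0.4536. Tpm2 in shMLL1 was lower at day 0 (-0.11, -0.18 to -0.04) and higher at day 7 (0.15, 0.06 to 0.24), a difference of -0.2605. All 3 kept these signs under DESeq2 size factors and library size alone, under which the smallest values were -0.03 for Tpm2 in shMLL1 at day 0 (DESeq2 size factors), -0.09 for Tpm1 in shMLL1 at day 7 and 0.09 for Tpm2 in shNFIB at day 0 (library size alone). Each of these 3 values lies outside its counting interval above, on the side of 0. The intervals do not cover the choice of scaling. All 6 log2 fold changes are within 2-fold.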

How the results depend on the processing

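No value past its threshold changed sign under an alternative that was run. Tpm1 in shNFIB against shControl at day 7, within 2-fold, went from 0.02 to -0.01 with DESeq2 size factors and to -0.08 with library size alone, which also took Myh11 there from 0.04 to -0.06. With all genes that had at least 1 count, 341 genes were called higher and 347 lower in shNFIB and 236 and 290 in shMLL1, with 2 members lower in each line, Myl9 and Lmod1, and 4 members lower at day 7, with Tagln added. DESeq2's Wald test called 292 higher and 308 lower in shNFIB and 169 and 232 in shMLL1, with 1 member lower in each. With only the 4 libraries compared, 323 genes were higher and 345 lower in shNFIB (2 members lower, Myl9 and Actg2) and 98 and 134 in shMLL1. Without the replicate block 1786 genes were called lower at day 7 and 1 member higher, and it changed no other count of day calls by over 1.5 times. Leaving out each line gave 1116 to 2639 genes higher, 1231 to 2749 lower, 1 to 2 members higher and 2 to 6 members lower at day 7, the lowest values without the shControl libraries and the 6 without the shMLL1 libraries. With the median pattern 1 of the 10 most similar genes stayed. Library size alone took the median log2 fold change of all genes from 0.042 to 0.248 for day 7 against day 0 in shMLL1, its largest shift, and moved 18 member values beyond their counting intervals, and DESeq2 size factors moved 7. Using only unshared exon bases as length, chosen after seeing the data, put Tagln above Actg2 in mean level. With 1 library per condition, differences between culture batches could not be told apart from those between conditions.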
